A study of Mus musculus with 6 samples.

Results

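Of 41308 consensus ATACseq peaks of the mouse glioma line GL261, 2521 (6.10%) held a stretch of over 200 bp shared by both libraries at <0.1% O2, severe hypoxia, and no such stretch from the other conditions. These 2521 peaks lay mostly far from genes' start sites, were low and narrow beside the peaks found in all 3 conditions, and held the AP-1 motif at their summit more often than peaks found at 1% O2 only or at 21% O2 only, and about as often as peaks found at both hypoxia levels. They were chosen by their presence: the peak intervals of the 2 replicates of a condition were intersected, shared stretches longer than 200 bp were kept, stretches of all 3 conditions were merged into consensus peaks, and a consensus peak was taken when it held a stretch from <0.1% O2 and none from 21% or 1% O2. Their count and their height at <0.1% O2 therefore follow from the rule and are given as a description.

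GL261 cells carrying the pEGFP-N1 vector, which expresses a green fluorescent protein, were held at 21% O2 or for 16 h at 1% or <0.1% O2, and were fixed with formaldehyde, in the hypoxic groups before they left the chamber. Each condition had 2 libraries, 6 in all, so every group was 1 cell line with 1 vector and differed from the others by its O2 level. Nothing in the descriptions says that replicates were separate cultures, so the p-values below measure only the spread between these libraries. The study asked how O2 level changes chromatin accessibility, which ATACseq reads from the places where a transposase can cut.

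The lists held 33006 to 43554 peaks, and the genome coverage read from the smallest background of each list ranged from 2.16 to 2.36 for the 21% O2 libraries, from 2.93 to 2.99 for the 1% O2 libraries and from 3.18 to 3.35 for the <0.1% O2 libraries. The <0.1% O2 libraries were thus the deepest, and values with the lists scaled to the coverage of the shallowest library are given beside the main counts and the AP-1 shares. Among markers of cell types, 13 of 17 glial and glioma markers had a peak of all 3 conditions within 2000 bp of a start site, among them *Nes*, *Sox2* and *Olig2*. The same held for 2 of 8 microglial and macrophage markers (*Csf1r* and *Tmem119*), 0 of 5 endothelial markers and 3 of 5 neuronal markers. The share over all genes is not given here, so these counts describe the markers and do not identify the cell type.

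Open regions away from start sites are often enhancers, which are bound by transcription factors that recognise short DNA words. AP-1, a dimer of Fos and Jun proteins made on stress and growth signals, binds TGANTCA and is known for opening enhancers together with other factors, among them the TEAD proteins that bind GGAATG. Under low O2 the hypoxia-inducible factors (HIF) bind ACGTG, while severe hypoxia also sets off the unfolded protein response, in which the kinase encoded by *Eif2ak3* raises ATF4. ATF4 pairs with a C/EBP protein on a composite word, written here as TGATGNAA.

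Windows around the summits of 4 of the strongest peaks show the AP-1 words in place. They are the members of the 12 highest, among those that no peak of another condition overlapped, in which the word lay within 60 bp of the summit and outside exons, with *Dpysl3* left out. Capitals mark TGANTCA, in mm10 (GRCm38.p6) on the plus strand, each window named by the nearest protein-coding gene.

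*Kcnh7*, chr2:62928657-62928777: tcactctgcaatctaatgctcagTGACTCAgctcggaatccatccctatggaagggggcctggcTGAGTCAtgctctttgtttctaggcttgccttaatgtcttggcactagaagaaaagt
*Dmac1*, chr4:74847453-74847573: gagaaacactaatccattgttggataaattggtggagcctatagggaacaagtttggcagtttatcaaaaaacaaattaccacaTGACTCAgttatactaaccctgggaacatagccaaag
*Sik2*, chr9:51015856-51015976: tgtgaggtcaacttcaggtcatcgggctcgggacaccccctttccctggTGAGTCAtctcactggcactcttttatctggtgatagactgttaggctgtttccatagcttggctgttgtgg
*Pter*, chr2:12728581-12728701: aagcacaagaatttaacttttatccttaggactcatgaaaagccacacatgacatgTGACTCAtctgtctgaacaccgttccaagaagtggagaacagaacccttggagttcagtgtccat

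A second set, chosen after the values were seen, shows the ATF4-C/EBP composite in its stricter form TGATGCAA. It holds the peak upstream of *Hspa5*, the gene of the endoplasmic reticulum chaperone BiP, and the 3 strongest of the other peaks with that word that no peak of another condition overlapped. Capitals mark the composite, read on either strand, and TGANTCA.

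*Hspa5*, chr2:34770271-34770391: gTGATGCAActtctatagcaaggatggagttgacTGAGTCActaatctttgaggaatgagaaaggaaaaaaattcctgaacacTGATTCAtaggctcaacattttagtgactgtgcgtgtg
*Tgfbr1*, chr4:47407324-47407444: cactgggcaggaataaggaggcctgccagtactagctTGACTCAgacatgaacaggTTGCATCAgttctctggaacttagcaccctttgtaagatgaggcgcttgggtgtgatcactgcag
*Sbf2*, chr7:110432389-110432509: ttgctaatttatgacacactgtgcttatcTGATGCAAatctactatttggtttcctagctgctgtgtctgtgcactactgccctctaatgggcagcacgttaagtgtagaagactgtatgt
*Gm10097*, chr10:5085960-5086080: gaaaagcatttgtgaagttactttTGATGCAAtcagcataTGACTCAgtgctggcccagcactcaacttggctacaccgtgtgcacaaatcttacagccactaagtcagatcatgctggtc

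The *Hspa5* window held 3 marked words, 1 composite and 2 AP-1 words, and 3 of these 4 windows held both kinds. Over all 2521 peaks, 47 held both the AP-1 word and the composite TGATGNAA within 100 bp of the summit, 853 held AP-1 without the composite and 94 the composite without AP-1.

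The 2521 peaks were found at <0.1% O2 in both libraries, but most were not empty elsewhere. A peak of at least 1 library of another condition overlapped 1769 of them, and 752 (29.8%) were met by no peak of the other 4 libraries. Single libraries at 21% O2 overlapped 286 and 554 of the 2521 peaks, and single libraries at 1% O2 overlapped 910 and 764. The mean shares were 33.2% at 1% O2 and 16.7% at 21% O2, a difference of 16.5 percentage points. The rule drew on the peaks of these same 4 libraries, so these shares describe the members and carry no test. The 1% O2 libraries were also deeper than the 21% O2 libraries and had longer lists. With peaks scaled to that lowest coverage, which left lists of 33006 to 42528 peaks, the difference was 16.9 points, and with all lists held to 33006 peaks it was 7.49 points. Within a replicate number it was 24.8 points for the libraries numbered 1 and 8.33 points for those numbered 2.

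**Figure D1:**
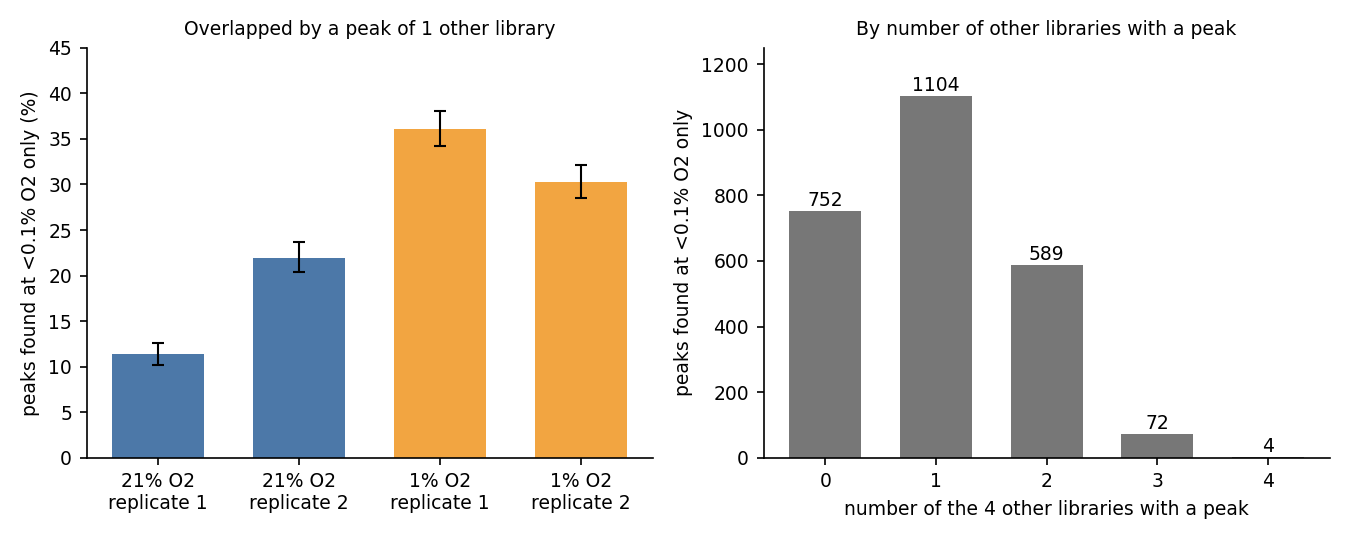
Left, share of the 2521 peaks found at <0.1% O2 only (y axis, %) that a peak of each of the 4 other libraries overlapped, with exact binomial 95% intervals as error bars. Right, number of the 2521 peaks (y axis) by how many of the 4 other libraries held a peak there. The 21% O2 libraries lie at 11.3% and 22% and the 1% O2 libraries at 36.1% and 30.3%, and 1 other library is the most frequent count.

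Of the 2521 peaks, 970 were met by a peak of a 1% O2 library and of no 21% O2 library, 191 by one of a 21% O2 library and of no 1% O2 library, and 608 by peaks of both conditions. In 96 cases both 1% O2 libraries had a peak there without sharing more than 200 bp with each other, and in 41 cases both 21% O2 libraries did. Where another library did have a peak, it was about as high as at <0.1% O2. Its summit pileup, the number of fragments over the summit, divided by the coverage of its library, was 0.963 and 0.978 times that at <0.1% O2 in the median for the 21% O2 libraries and 1.01 and 0.967 times for the 1% O2 libraries. Those medians cover called peaks only, which had to be high enough to be called.

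The height of each peak was also scaled to the coverage of each other library, a count added after the data were seen. At equal height per coverage 2255 of the 2521 peaks (89.4%) would have passed the smallest p of all 4 other libraries, and 664 of those had no peak in any of them. In single libraries the number that would have passed but had no peak was 2021 and 1871 at 21% O2 and 1565 and 1736 at 1% O2. This scaling leaves out chance variation in fragment counts, so a peak counted as passing could still have been missed. With all lists scaled to the lowest coverage, the rule gave 2313 peaks in place of 2521.

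The peaks were low in both libraries that defined them, as were those of the other single conditions in theirs. The fold over local background had a median of 6.20 in replicate 1 and 5.68 in replicate 2, at the 26.7th and 21.4th percentile of all folds in those lists, and the median summit pileup was 31 and 27 fragments. Peaks found at 1% O2 only lay at the 22.3rd and 20.3rd percentile of their lists and peaks found at 21% O2 only at the 17.8th and 19.4th. In the <0.1% O2 libraries themselves the 465 peaks found at 21% and <0.1% O2 and missing at 1% O2 were of the same height, with median folds of 6.21 and 5.69. The lowest folds of the 2521 peaks were 1.83 and 2.01 and the highest 19.1 and 16.5. Across the 2521 peaks the log2 folds of both libraries had a Pearson correlation of 0.748 and a Spearman correlation of 0.712, and 2306 peaks (91.5%) were within 1.5-fold of each other. These correlations are across peaks of a single pair of libraries, all selected to be present in both, and the points share depth. The summits of both libraries were 32 bp apart in the median.

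**Figure D2:**
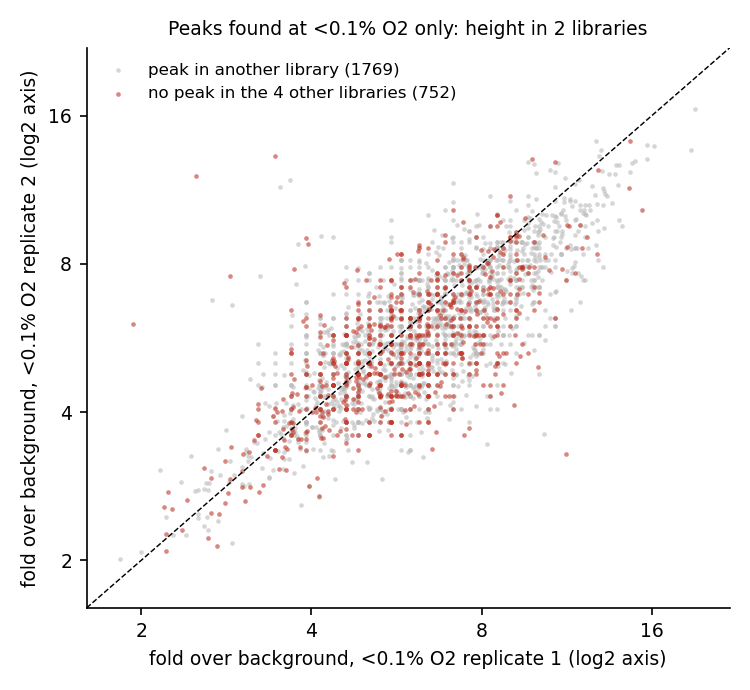
Fold over local background in <0.1% O2 replicate 1 (x axis) and replicate 2 (y axis), both on log2 axes, with 1 point per peak found at <0.1% O2 only and the dashed line where both are equal. Red points are the 752 peaks with no peak in the other 4 libraries and grey points the other 1769, and both kinds lie on both sides of the line, with medians over all points of 6.20 and 5.68.

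The median peak was 301 bp long, against 829 bp for peaks found in all 3 conditions and 279 bp for peaks found at 1% O2 only. Each was made of 1 shared stretch, and 382 had a stretch of 201 to 250 bp. Just inside the threshold lay peaks nearest to *Tnpo1* and *Fbxo8*, both with 201 bp shared, and to *Adgrv1*, with 202 bp. Their folds were 3.84 and 4.07, 5.85 and 4.29, and 6.44 and 4.54. Just outside, with 200 bp shared, lay sites nearest to *Bin2*, *Dtwd2* and *Sema3c*, with folds of 3.92 and 4.11, 8.26 and 6.10, and 5.98 and 6.70. In all, 163 sites were shared by both <0.1% O2 libraries over 200 bp or less and touched no consensus peak. A further 69 of the 2521 (2.74%) were the edge of a longer <0.1% O2 peak that also reached another consensus peak, so what the rule counted there is part of a wider peak in at least 1 of the libraries. Among these were the peaks at the promoters of *Ddit4* and *Dusp1*.

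Most of the peaks lay away from start sites. Within 2000 bp of a start site of any gene, called promoter here, were 299 of them (11.9%, exact binomial 95% interval 10.6 to 13.2, counting error only), 105 touched an exon, 1010 (40.1%) an intron alone and 1107 (43.9%) were intergenic. The promoter share was 17.5% (16.2 to 18.9) for peaks found at 1% O2 only, 21.2% (18.4 to 24.3) for peaks found at 21% O2 only, 14.3% (13.3 to 15.3) for peaks found at both hypoxia levels and 45.8% for peaks found in all 3 conditions. The share was thus below that of each of these 4 classes, with an interval apart from all of theirs. It was not apart from that of the 465, 14.2% (11.2 to 17.7). The median distance from the summit to the nearest start site of a protein-coding gene was 32045 bp, against 22909 bp for peaks found at 1% O2 only, 34395 bp for the 465 and 8927 bp for those of all 3 conditions, and 967 of the 2521 (38.4%) were over 50 kb away.

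**Figure D3:**
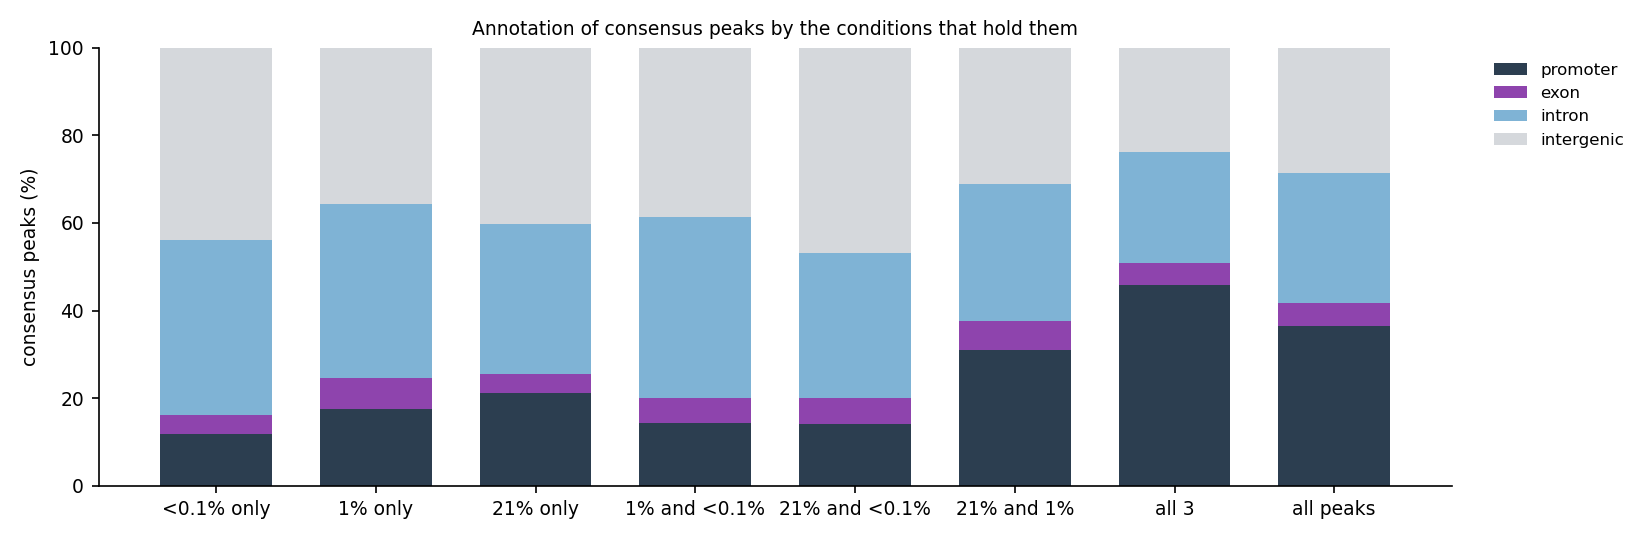
Stacked bars give the share (y axis, %) of promoter, exon, intron and intergenic peaks in 7 classes of consensus peak and in all consensus peaks. The peaks found at <0.1% O2 only have the smallest promoter part of the bars shown, 11.9%, and an intergenic part of 43.9% against 28.6% of all consensus peaks.

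Of the 299 promoter peaks, 189 lay within 2000 bp of a protein-coding start site, 110 near start sites of noncoding genes alone, and 52 covered a start site. Their summit windows (201 bp) had a median GC content of 49.3%, against 63.7% for promoter peaks found in all 3 conditions. Over all 2521 peaks the median GC content was 46.8%, below the 51.7% of peaks found at 1% O2 only and the 49.8% of those found at 21% O2 only, and a mean of 13.8% of a window was repeat-masked, against 9.55% over all consensus peaks. The 465 had nearly the same values, a median of 46.3% GC and a mean of 14.2% repeat-masked.

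The peaks were spread over the genome. They made up 4.76% (chromosome 16) to 7.95% (chromosome 18) of the consensus peaks of an autosome and 7.58% on the X chromosome. None of the 10 consensus peaks on the Y chromosome was among them, for which the exact interval reaches 30.8%. The nearest peak of all 3 conditions was 20457 bp away in the median, and only 96 of the 2521 (3.81%) had another peak of their own class within 10 kb, against 523 (10.3%) of the 5059 peaks found at both hypoxia levels. The classes differ in size, so this last share was not compared further.

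AP-1 was the most frequent of the 21 words searched. TGANTCA, on either strand, stood in the summit window of 900 of the 2521 peaks (35.7%, 33.8 to 37.6). The share was 21.1% (19.7 to 22.6) for peaks found at 1% O2 only, 12.7% (10.5 to 15.3) for those found at 21% O2 only, 21.7% (18.1 to 25.7) for the 465 of 21% and <0.1% O2, 19.4% for those of all 3 conditions and 22.4% over all consensus peaks. With the lists scaled to the lowest coverage the share of the <0.1% O2 only peaks was 37.2%. It was 37.1% (35.8 to 38.5) for the peaks of 1% and <0.1% O2 that 21% O2 lacked, an interval that overlaps that of the peaks found at <0.1% O2 only. So a high AP-1 share was common to both sets of peaks that include <0.1% O2 and leave out 21% O2. The word sat at the summit: the 20 bp bin centred on it held AP-1 in 7.18% of the 2521 peaks, and the bins 200 bp to either side in 1.11% and 0.833%.

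GC content and distance from promoters move with these shares, so they were also taken among windows outside promoters with a GC content of 40 to 50%. There the AP-1 share was 39.4% (36.8 to 42) for peaks found at <0.1% O2 only, 25.3% (22.7 to 28) for 1% O2 only, 17.5% (13.4 to 22.3) for 21% O2 only, 43.3% (41.2 to 45.4) for both hypoxia levels and 34.7% (33.5 to 35.8) for all 3 conditions. The distance from the peaks of all 3 conditions was thus much smaller in this range, while the intervals of the 1% O2 only and 21% O2 only peaks still lay below.

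**Figure D4:**
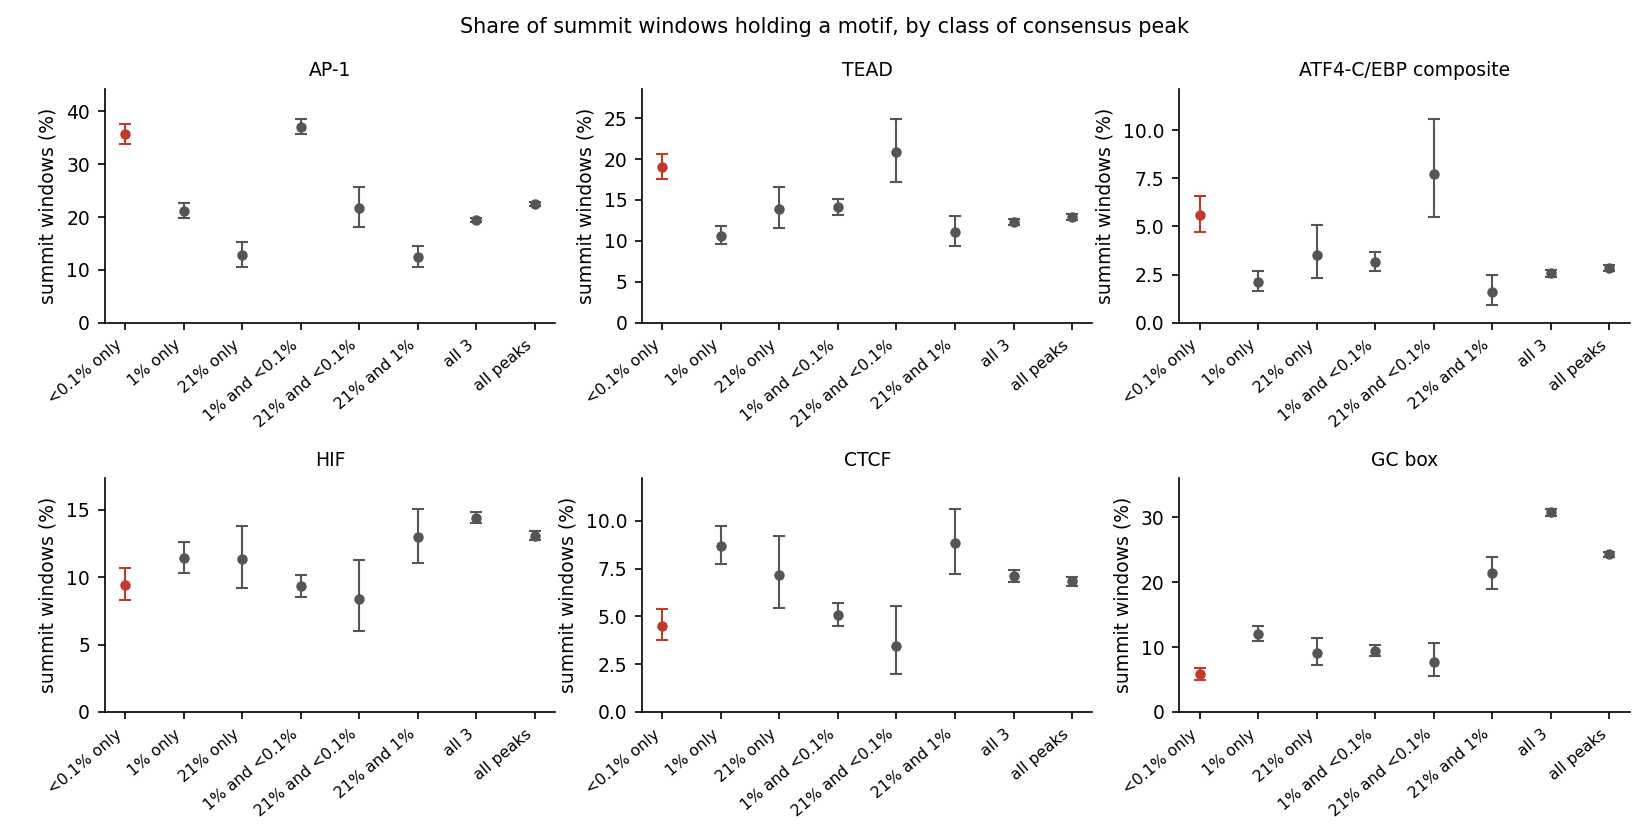
Share of summit windows (y axis, %) that hold each of 6 motifs in 7 classes of consensus peak and in all consensus peaks, with exact binomial 95% intervals as error bars and the peaks found at <0.1% O2 only in red. AP-1 and TEAD lie at 35.7% and 19.1% in the red class against 22.4% and 12.9% of all consensus peaks, and the GC box at 5.79% against 24.3%.

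TEAD words were the next. GGAATG stood in 481 windows (19.1%, 17.6 to 20.7), against 10.7% (9.60 to 11.8) of peaks found at 1% O2 only, 13.9% (11.5 to 16.6) at 21% O2 only, 14.1% (13.2 to 15.1) at both hypoxia levels and 12.3% in all 3 conditions. The 465 peaks found at 21% and <0.1% O2 had a share as high, 20.9% (17.3 to 24.8). Outside promoters and at 40 to 50% GC the share was 20.8% (18.7 to 23), against 10.9% (9.11 to 13), 15.9% (12 to 20.5), 15.4% (13.9 to 17) and 17.5% (16.6 to 18.5) in the same order. Its interval met that of the 21% O2 only peaks in this range, lay above the other 3, and met that of the 465, at 21.2% (16.2 to 27). AP-1 and TEAD words occurred together in 190 of the 2521 peaks.

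The ATF4-C/EBP composite TGATGNAA stood in 141 windows (5.59%, 4.73 to 6.56), against 2.12% (1.64 to 2.68) of peaks found at 1% O2 only, 3.51% (2.33 to 5.07) at 21% O2 only, 3.16% (2.70 to 3.68) at both hypoxia levels and 2.83% of all consensus peaks. It was 7.74% (5.48 to 10.6) for the 465 peaks found at 21% and <0.1% O2, so a high share was not particular to the <0.1% O2 only peaks. The distance from the first 3 classes was partly lost at matched base composition. Outside promoters and at 40 to 50% GC it stood in 5.50% (4.36 to 6.84) of windows, against 3.52% (2.49 to 4.82), 5.30% (3.06 to 8.46) and 4.14% (3.34 to 5.07) in the same order, and all of these intervals overlap with that of the <0.1% O2 only peaks. The stricter TGATGCAA, added after the data were seen, was rare, in 32 of the 2521 peaks (1.27%, 0.870 to 1.79) against 0.316% (0.152 to 0.580) of peaks found at 1% O2 only, 0.780% (0.287 to 1.69) at 21% O2 only and 3.66% (2.14 to 5.79) of the 465.

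The word of HIF showed no such rise. ACGTG stood in 9.44% (8.33 to 10.6) of the windows, against 11.4% (10.3 to 12.6) of peaks found at 1% O2 only, 9.31% (8.52 to 10.1) at both hypoxia levels and 13.1% of all consensus peaks, and its longer E-box form CACGTG, which holds ACGTG, in 2.58% against 4.31% of all. Words of promoters and of insulators were less frequent, the GC box GGGCGG at 5.79% against 24.3% of all consensus peaks and the CTCF word AGGNGGCNC at 4.52% (3.74 to 5.41) against 8.69% (7.73 to 9.73) of peaks found at 1% O2 only. The CTCF share was 5.08% (4.49 to 5.72) at both hypoxia levels and 3.44% (1.98 to 5.53) in the 465, both with intervals that overlap. Outside promoters the gaps were smaller, with the GC box at 4.86% (4 to 5.84) against 9.35% of all consensus peaks, HIF at 9.27% (8.10 to 10.6) against 10.4%, and CTCF at 4.41% (3.59 to 5.35) against 5.41% of all and 7.89% (6.89 to 8.99) of peaks found at 1% O2 only. The ETS word CCGGAAGT and the NRF1 word CGCATGCG, both common in promoters, were in 3 and 1 of the 2521 peaks.

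The other words searched were RUNX TGTGGT at 18.6% (14.1% of all consensus peaks), forkhead TGTTTNC at 18% (15.2%), the NFI half-site TTGGCA at 15.2% (12.8%), SOX AACAAT at 10.6% (7.57%), C/EBP TTGCNNAA at 8.77% (7.18%), STAT TTCNNNGAA at 8.65% (6.13%) and the glucocorticoid receptor ACANNNTGT at 7.38% (5.33%). HSF TTCTAGAA at 0.952% (0.458%), OCT ATGCAAAT at 0.912% (0.891%), NF-kB GGGANTTCC at 0.754% (1.17%) and CRE TGACGTCA at 0.357% (1.18%) were rare. All were searched on both strands in the same 201 bp windows, and a match is a word in the sequence and not a bound site. Some words overlap: TGATGCAA is a case of TGATGNAA, and its end can form part of ATGCAAAT.

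The 2521 peaks differed among themselves in these words. Ordered by the lower of their 2 folds and split in 3 equal parts, the weakest held AP-1 in 24.4% (21.5 to 27.5), the middle part in 35.6% (32.4 to 38.9) and the strongest in 47.1% (43.7 to 50.5), and TEAD in 14.9%, 19.9% and 22.5%. The composite stood at 5.00%, 6.07% and 5.71% and HIF at 8.81%, 11% and 8.56%, with no order by strength. Promoter peaks were 19.6% of the weakest part and 8.20% of the strongest. By presence elsewhere, AP-1 was in 37.8% (34.3 to 41.3) of the 752 peaks with no peak in the other 4 libraries, 41.0% (37.9 to 44.2) of the 970 also met at 1% O2 alone, 28.8% (22.5 to 35.8) of the 191 also met at 21% O2 alone and 26.8% (23.3 to 30.5) of the 608 met at both. TEAD stood at 23.1% (20.2 to 26.3), 17.6% (15.3 to 20.2), 21.5% (15.9 to 28) and 15.6% (12.8 to 18.8) in the same order. Of the 664 peaks that would have passed in all 4 other libraries at equal height and had no peak there, 39.8% (36.0 to 43.6) held AP-1 and 24.2% (21.0 to 27.7) TEAD.

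The AP-1 share was then taken in each library by itself, from its peaks that no library of another condition overlapped, a comparison added after the data were seen. It was 9.56% and 11.6% in the 21% O2 libraries, 20.4% and 21.0% in the 1% O2 libraries and 33.1% and 31.1% in the <0.1% O2 libraries. Replicates share some of these peaks, and the <0.1% O2 libraries share 813 of 3381 and 809 of 1874, which include members, so no p-value is given for these values. With the lists scaled to the lowest coverage <0.1% O2 lay 14.1 points above 1% O2 and 24.3 points above 21% O2, in place of 11.4 and 21.5 points. The difference from 1% O2 was 6.99 points without <0.1% O2 replicate 1 and 20.6 points with equal list lengths.

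Peaks that none of the other 5 libraries overlapped belong to 1 library each and hold no member of the class. The replicates at 21% O2 had 325 and 817 of them, those at 1% O2 had 1758 and 1301, and those at <0.1% O2 had 2568 and 1065. AP-1 stood in 7.69% and 11.6% of those in the 21% O2 libraries, in 20.4% and 21.8% of those in the 1% O2 libraries, and in 31.6% and 26.2% of those in the <0.1% O2 libraries. The mean at <0.1% O2 was 28.9% ± 3.81 (SD, n = 2), 7.80 points above 1% O2 (21.1% ± 0.942) and 19.2 points above 21% O2 (9.66% ± 2.78). Neither pair of groups overlapped, and the two-sided exact permutation test of 2 libraries against 2 gave p = 0.33 for each, the smallest it allows. In all 22 comparisons of single libraries' peaks were computed, including those on the larger sets above for which no p-value is given, and no adjusted value could be smaller.

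For TEAD the <0.1% O2 libraries gave 17.7% and 16.2%, those at 1% O2 gave 11.8% and 11%, and those at 21% O2 gave 15.1% and 14.2%, so <0.1% O2 again did not overlap with either (exact permutation p = 0.33). HIF words stood at 8.88% and 7.89% at <0.1% O2, below the 10.4% and 9.84% of 1% O2 and the 9.85% and 9.91% of 21% O2 (exact permutation p = 0.33 for each). The order against 21% O2 depended on the set: in the larger sets, where replicates may share peaks, <0.1% O2 (8.90% and 8.86%) overlapped with 21% O2 (8.60% and 9.92%).

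**Figure D5:**
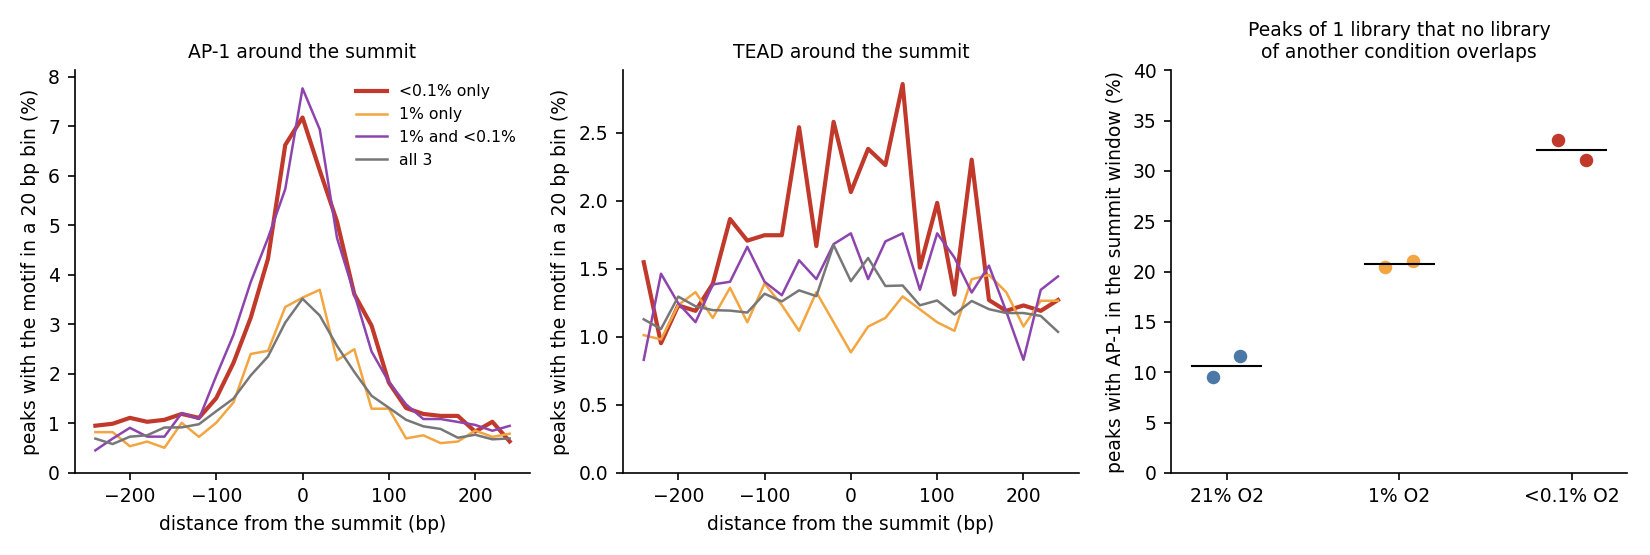
Left and middle, share of peaks (y axis, %) with an AP-1 or TEAD word in each 20 bp bin by distance from the summit (x axis, bp), for 4 classes of consensus peak. Right, share of peaks with AP-1 in the summit window (y axis, %) among the peaks of each library that no library of another condition overlapped, with 1 point per library and a line at the mean. AP-1 reaches 7.18% at the summit in the peaks found at <0.1% O2 only, and the library values rise from 9.56% and 11.6% at 21% O2 to 33.1% and 31.1% at <0.1% O2.

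The strongest peaks with no counterpart in the other 4 libraries lay in introns and between genes, with 1 exception near a noncoding start site. Ranked by the lower of the 2 folds, the first was in an intron of *Kcnh7*, a voltage-gated potassium channel gene, at chr2:62928554-62928884, with folds of 14.6 and 14.2 from summit pileups of 64 and 59 fragments. Its window held 2 AP-1 words, as printed above. The second, at chr10:3476703-3477003, lay 63427 bp upstream of *Iyd*, an iodotyrosine deiodinase, with folds of 12.9 and 12.4 and with AP-1 and TEAD words. The third, in an intron 124984 bp from the start site of *Ldhal6b*, had folds of 14.6 and 11.4 and a TEAD word and no AP-1 word.

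The peak nearest to *Dmac1* lay 430792 bp from its start site, with folds of 10.8 and 12.9. An intron of *Dpysl3*, which encodes a collapsin response mediator protein of growing neurites, held one with folds of 15.4 and 10.3 and an AP-1 word. A peak 26782 bp upstream of the imprinted gene *Rtl1*, within 2000 bp of a noncoding start site, had folds of 9.83 and 13.0. The remaining 6 of these 12 were nearest to *Sgpp2*, *Ehbp1*, *Sik2*, *6030445D17Rik*, *Cdh10* and *Pter*, with the lower of their folds between 9.16 and 9.58. The *Sik2* peak, 6843 bp upstream of this salt-inducible kinase gene, was the closest of the 12 to a coding start site.

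At protein-coding promoters the strongest peaks with no counterpart were weaker than these. The first by the lower fold was 1510 bp downstream of the start site of *Neto2*, an accessory subunit of kainate receptors, with folds of 7.61 and 7.77. That of *Cdkal1*, a tRNA-modifying enzyme, had folds of 9.66 and 6.94 and that of *Rtl3* 6.85 and 6.46. The promoter of *Vcam1*, a cell adhesion molecule that inflammatory signals induce, carried one with its summit 89 bp upstream of the start site, with folds of 6.21 and 5.26 and a NF-kB word. The others of the 10 were at *Rasgef1c*, *Rnf112*, *Gjd4*, *Tnfaip8l2*, *Rftn2* and *Trmt2b*, and none of the 10 windows held an AP-1 word.

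Few genes gathered several of the peaks. Of 21911 protein-coding genes, 2904 had at least 1 within 50 kb of a start site, 249 had 2, 17 had 3 and 1 had 4. The gene with 4 was *Tmem86a*, where folds ran from 4.16 to 7.84 and no window held AP-1 or the composite. *Dpysl3* had 3, in an intron, at its promoter and 17850 bp upstream, of which the first and the last held AP-1. *Ahi1*, *6030445D17Rik* and *Wdr25* also had 3 each, with 1 AP-1 window at each gene.

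Genes of known pathways were then read against that background. Of all protein-coding genes, 13.3% had a peak found at <0.1% O2 only within 50 kb of a start site and 0.904% within 2000 bp. The lists were chosen with earlier results of these data known, genes of a list can share a peak, and genes with more open chromatin around them have more chances. The shares are therefore given beside the median number of consensus peaks of any class within 50 kb, which was 3 over all coding genes.

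Of 50 HIF targets, 17 (34%) had such a peak within 50 kb and 3 (6%) within 2000 bp, with a median of 6 consensus peaks of any class per gene. Among the 17 were *Adm*, *Angptl4*, *Bnip3*, *Car12*, *Car9*, *Ddit4*, *Egln3*, *Epas1*, *Ldha*, *Lox*, *Mxi1*, *Pfkl*, *Pkm*, *Slc2a1*, *Stc2* and *Vegfa*. The same list had a peak found at 1% O2 only near 30% of its genes (19.5% of all coding genes) and one found at both hypoxia levels near 42% (26.6%). The share of the list thus stood above that of all coding genes for each of these 3 classes, as did its number of consensus peaks.

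The peak 27004 bp downstream of the *Vegfa* start site, at chr17:46004120-46004593, had folds of 10.7 and 9.02 and AP-1 and HIF words. Both 1% O2 libraries had a lower peak at it, with folds of 5.86 and 5.76, and neither 21% O2 library had one. That near *Pfkl*, which encodes a phosphofructokinase of glycolysis, had folds of 9.89 and 8.87, with peaks of 5.18, 5.80 and 9.0 in 3 of the other libraries. That near *Adm*, the vasodilator peptide adrenomedullin, had folds of 8.12 and 7.81, against 7.38 and 5.01 at 1% O2 and none at 21% O2.

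In 6 of the 50 HIF targets (12%, against 3.96% of all coding genes) a peak had no counterpart in the other 4 libraries: *Angptl4*, *Ddit4*, *Epas1*, *Ldha*, *Slc2a1* and *Stc2*. A share above that of all coding genes was not particular to this list. Among the lists below it was 18.2% for cytokines and inflammation, 11.1% for the unfolded protein response, 10.8% for matrix genes and 9.68% for angiogenic genes. It was 6.67% for AP-1 and immediate early genes and 0% for helicase and splicing factor genes. For *Slc2a1*, the glucose transporter GLUT1, the peak lay 41327 bp upstream of the gene's start site with folds of 5.06 and 6.01 and an AP-1 word. For *Ddit4*, an inhibitor of mTORC1, it was the edge of the large promoter peak in <0.1% O2 replicate 2, with a fold of 6.04, and a separate low peak beside that promoter peak in replicate 1, with a fold of 1.93. The other 4 libraries had the promoter peak with folds of 6.86 to 8.06, so the *Ddit4* promoter was open in every library.

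Of 36 genes of the unfolded protein and integrated stress response, 9 (25%) had a peak found at <0.1% O2 only within 50 kb, with a median of 6 consensus peaks per gene. They were *Atf3*, *Atf6*, *Calr*, *Edem1*, *Eif2ak3*, *Gdf15*, *Hspa5*, *Pdia6* and *Xbp1*, which hold 2 sensors of the response, *Atf6* and *Eif2ak3*, as well as chaperones. A peak found at 1% O2 only lay near 33.3% of the list (19.5% of all coding genes) and one found at both hypoxia levels near 50% (26.6%). *Atf6*, a membrane-bound sensor and transcription factor, had 2 in its introns. That 14052 bp from the start site had folds of 10.8 and 7.89 and a peak of 6.11 in 1 library at 1% O2, and that 37746 bp away had folds of 7.59 and 7.89 and no counterpart. Both windows held an AP-1 word.

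The peak near *Xbp1*, another transcription factor of the response, had folds of 6.90 and 6.94, that near *Pdia6*, a disulphide isomerase, 5.52 and 6.35, and that in *Eif2ak3* 8.67 and 5.49. Other libraries had peaks at these 3, in 1, 2 and 2 cases. At *Xbp1* the fold there was 7.13, in 1% O2 replicate 1. At *Pdia6* it was 7.15 in 21% O2 replicate 2 and 7.48 in 1% O2 replicate 1. These *Xbp1* and *Pdia6* values lay above both folds given for the peak. At *Eif2ak3* the same libraries had 5.93 and 6.22, between both folds given. *Hspa5* and *Gdf15* had their peak within 2000 bp of the start site and no counterpart.

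The *Hspa5* peak lay upstream of a promoter that was open in every library. At chr2:34770182-34770543, with its summit 1639 bp upstream of the start site, both <0.1% O2 libraries had a peak, with folds of 5.46 and 4.35 and summit pileups of 136 and 96 fragments, and no other library had one. The promoter peak beside it was present in all 6 libraries, with folds of 12.7 and 13.5 in the 21% O2 libraries, 15 and 16.5 in the 1% O2 libraries and 13.1 and 12.6 in the <0.1% O2 libraries. The promoter folds at <0.1% O2 were thus within the range of the 21% O2 libraries or just below it, while the upstream peak was called at <0.1% O2 alone. The window of the upstream peak is printed above, with its composite and 2 AP-1 words. At *Gdf15*, a stress-induced growth factor, the peak 1806 bp upstream had folds of 3.01 and 2.82, beside a promoter peak with folds of 6.70 to 7.97 in the 6 libraries.

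Of 33 genes of cytokines and inflammation, 12 (36.4%) had such a peak, with a median of 3 and a mean of 4.79 consensus peaks per gene, against a mean of 3.58 over all coding genes. At least 1 consensus peak of any class lay near 93.9% of the list and 79.1% of all coding genes. They were *Ccl2*, *Ccl7*, *Csf1*, *Csf2*, *Il11*, *Il1b*, *Lif*, *Nfkb1*, *Nfkb2*, *Nfkbia*, *Tnfaip3* and *Vcam1*, of which *Ccl2* and *Ccl7* share 1 peak. The peak 39928 bp upstream of *Nfkb1*, a subunit of NF-kB, had folds of 13.0 and 13.6, and 1% O2 replicate 2 had one of 16.1 there. *Tnfaip3*, an inhibitor of NF-kB signalling, had 3 peaks, with folds of 7.36 and 6.22, 6.14 and 5.68, and 9.01 and 4.80, of which that 2405 bp into the gene had no counterpart. *Nfkbia*, which holds NF-kB in the cytoplasm, had a peak with folds of 7.21 and 5.38, met by a peak of 8.34 in 1 library at 21% O2 and of 4.58 in 1 at 1% O2. The share with a peak of another class was 27.3% for peaks found at 1% O2 only and 42.4% for both hypoxia levels.

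Of 37 genes of matrix, adhesion and mesenchymal state, 10 (27.0%) had such a peak, with a median of 5 consensus peaks per gene: *Ccn1*, *Ccn2*, *Col5a2*, *Fn1*, *Itga5*, *Mmp14*, *S100a4*, *Snai1*, *Timp3* and *Vim*. The peak 10197 bp downstream of the start site of *Ccn2*, a matricellular protein and a known target of TEAD, had folds of 9.20 and 9.31 and an AP-1 word. It was met by peaks of 7.74 in 1 library at 21% O2 and 9.48 in 1 library at 1% O2. *Fn1*, fibronectin, had 2 upstream, with folds of 8.28 and 7.89 and of 4.15 and 3.54, the latter with a TEAD word and no counterpart. That near *Itga5*, the integrin subunit that binds fibronectin, had 6.09 and 6.52, and 1 library at 1% O2 had 5.36 there. It lay in an intron, 36877 bp from the *Itga5* start site and 4441 bp from that of *Zfp385a*. The peak in the collagen gene *Col5a2* had 10.8 and 5.98, with 6.01 in 1 library at 21% O2 and 12.3 in 1 library at 1% O2, the highest of the 4. The share of this list with a peak of another class was 27.0% for peaks found at 1% O2 only and 35.1% for both hypoxia levels.

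Of 31 angiogenic and growth factor genes, 4 (12.9%) had such a peak, with a median of 4 consensus peaks per gene, and 32.3% had one found at 1% O2 only and 25.8% one found at both hypoxia levels. The 4 were *Hgf* with folds of 7.13 and 7.65, its receptor gene *Met* with 6.44 and 4.88, the VEGF receptor gene *Flt1* with 5.39 and 4.66 (5.38 in 1 library at 21% O2 and 5.33 in 1 at 1% O2) and *Pdgfa* with 3.76 and 4.36. Of 19 helicase and splicing factor genes, a list drawn up after the study's own choice on these libraries and so no independent evidence, 3 (15.8%) had one, *Hnrnpu*, *Ddx39b* and *Sfpq*, all met by a peak of another library. That list had a median of 3 consensus peaks per gene, no gene near a peak found at 1% O2 only and 26.3% near one found at both hypoxia levels. Of 30 AP-1 and immediate early genes only *Dusp1* and *Dusp5* did (6.67%), both phosphatases that switch off MAP kinases, though this list had a median of 7.5 consensus peaks per gene. In that list 46.7% of genes had a peak found at 1% O2 only (19.5% of all coding genes) and 56.7% one found at both hypoxia levels (26.6%).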

How the data were processed

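ATACseq peak lists of 6 GL261 libraries were used. Per the submitters' processing notes, the tools named include Trimmomatic, Bowtie2 2.2.5, Picard, MACS2 2.1.1.2 and deepTools, with build mm10. The authors called peaks in each library and deposited a ratio (fold over local background), a −log10 p-value and a −log10 q-value for each peak. Pileup and background at the summit were recovered from fold and p-value for 100% of peaks (tolerance 0.01 in −log10 p). The rule, its script and the motif search were tested on simulated data.

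Start sites came from GENCODE M21 basic, and sequence from GRCm38.p6. Intervals are exact binomial (95%) and cover counting error only, as peaks are not replicates. Libraries were compared by two-sided exact permutation tests.

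The peaks, gene lists, motifs and tests were chosen with earlier results of these data known. Named were the 12 strongest peaks (by the lower fold) without counterpart, the 10 strongest of these at coding promoters, the 5 genes with most peaks within 50 kb, list genes with a peak (values for up to 4, with 1 gene not reported here), and the 3 peaks on each side of the 200 bp threshold. Alternatives changed the stretch length, peak threshold, list length, depth, chromosomes, replicates, windows, absence rule and joining. Those on edges of longer peaks and on single libraries' peaks were chosen after seeing the data. Python 3.11.15, numpy 2.4.6, scipy 1.17.1 and matplotlib 3.10.9 were used.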

Additional observations from a re-analysis of the deposited data

How the results depend on the processing

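The number of peaks found at <0.1% O2 only, 2521, depended most on which libraries were used and on what counts as absence. It was 752 where no peak of any library of another condition was allowed and 1676 with equal list lengths, and leaving out 1 library gave 1611 to 7290. The highest, 7290 and 4501, came without <0.1% O2 replicate 2 and replicate 1, where 1 library's peaks stand for the condition, and the lowest without 1% O2 replicate 2. The promoter share, 11.9%, was 10.2% under the strict absence, 15.3% with stretches over 400 bp, and 4.44% and 23.0% with windows of 500 and 5000 bp, with 11.1% to 11.9% when 1 library was left out. The AP-1 share, 35.7%, was 43.9% with equal list lengths, 39.2% at 40 to 50% GC, 37.8% under the strict absence and 45.7% with 250 bp on each side of the summit, with 31.1% to 37.8% when 1 library was left out. The other alternatives run left these 3 values within 1.5 times or within their interval.

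The difference between 1% and 21% O2 in single-library peaks, which the rule's own libraries give, ranged from 7.49 to 29.3 points over 15 alternatives. Same-numbered libraries did not deviate together (correlation −0.0555 between 21% and 1% O2 over 28432 peaks), so they share a number only. With the replicate block the difference was 16.5 points. The AP-1 excess at <0.1% O2, among peaks of 1 library that no other condition overlapped, kept its direction in 12 alternatives each. It ran from 6.99 to 20.6 points over 1% O2 and from 19.1 to 32.3 points over 21% O2. The lowest, 6.99 points, came without <0.1% O2 replicate 1. Only the alternative on peaks that none of the other 5 libraries overlapped holds no member of the class, with 7.80 and 19.2 points. All others include members and carry no test. Depth limits what can be said of absence: at equal height, 266 of the 2521 peaks would not have passed in every other library. That count leaves out chance variation in fragment counts, so the other peaks could have been missed too. Of the 3381 peaks of <0.1% O2 replicate 1 that no other condition overlapped, 2568 had no peak in replicate 2 either.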
